A study of Mus musculus with 97 samples.

Results

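RNA of sorted cortical cells lacking Dab1 was compared with RNA of their own controls at birth (postnatal day 0, P0). The libraries were chosen by genotype, age and alignment. All 9 KO-Dab1 libraries were kept, and of the 7 control libraries of the same data set the 6 with at least 50% uniquely aligned reads were kept, which gave 15 of the 97 libraries of the series. Controls of the Cdk5r1 data set were not pooled with them.

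Each library came from about 2000 green (GFP+) cells sorted from the cortex of CD1 mice, and was made from polyA RNA with SMART-Seq v2. The cells were labelled by mosaic analysis with double markers (MADM), in which Cre recombinase rejoins split fluorescent reporters on a pair of chromosomes. Cre was driven by Emx1, a gene of dorsal telencephalic progenitors, so the labelled cells were projection neurons and glia of that lineage. By the labels, control mice were MADM-5 GT/TG;Emx1-Cre and carried no deletion. The labels give KO-Dab1 mice the same cassettes and Cre, with the Dab1 mutation on both the GT and the TG chromosome (MADM-5 GT,Dab1/TG,Dab1). The labels place the cassettes on chromosome 5 and the study's methods place them on another chromosome. Dab1 lies on chromosome 4, so its mutation cannot sit on a chromosome 5 cassette as labelled. The paper instead describes a Dab1−/− knockout separate from the cassettes and global, so that cells around the sorted ones lacked Dab1 too. The division into control and KO-Dab1 rests on the labels.

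Reelin is a large glycoprotein that Cajal-Retzius cells secrete at the surface of the developing cortex. It binds the receptors VLDLR and APOER2 (the product of Lrp8) on migrating neurons, and Src-family kinases such as FYN then phosphorylate the adaptor DAB1. Phosphorylated DAB1 recruits CRK proteins and PI3 kinase, acts on cadherins, integrins and the cytoskeleton, and is removed through CUL5 and SOCS proteins; without it, later-born neurons fail to pass earlier-born ones.

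Reads counted on genes ranged from 4821948 to 8607367 in the controls, with a median of 7390173, and from 1920213 to 8006825 in KO-Dab1, with a median of 6552415. KO-Dab1 replicate 5 was the shallowest library. None of 9 library measures differed between the groups after Benjamini-Hochberg adjustment (exact two-sided permutation test over 5005 arrangements, n = 6 and 9). The smallest unadjusted p was 0.0424, for the share of reads on the 10 most counted genes, which was 6.46% ± 0.403 in the controls and 7.18% ± 0.730 in KO-Dab1 (SD, adjusted p = 0.340). The share of reads outside genes was 12.3% ± 1.37 in the controls and 13.5% ± 1.10 in KO-Dab1 (exact permutation p = 0.0881, adjusted p = 0.340).

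Some libraries stood apart from the rest. On the first principal component, which held 19.9% of the variance, KO-Dab1 replicate 2 lay at 81.0 and control replicate 1 at −43.7, with the other libraries between −24.3 and 18.3. On the second, which held 14.1%, control replicates 1 and 7 and KO-Dab1 replicate 2 lay at 41.0, 38.4 and 31.7, and no other library lay above 10.8. At its lower end KO-Dab1 replicates 6, 7, 8 and 9 lay at −32.0, −25.0, −24.0 and −31.0, with the remaining libraries at −8.97 or above. KO-Dab1 replicate 2 also had the highest mitochondrial share, 4.30% of gene reads. Y-linked counts were found in control replicates 2 and 3 and KO-Dab1 replicates 8 and 9; the other libraries held Xist, so both sexes were in both groups.

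The deposited counts of the targeted gene could not be used to check the labels. The deleted region is exon 3 of the 15 exons of transcript Dab1-203, at chr4:104605298-104605437 on the plus strand (GRCm38), a coding exon of 140 bases, which leaves 2 bases over a multiple of 3. It makes up 1.77% of the 7908 exon bases of Dab1 (ENSMUSG00000028519.16, chr4:103619359-104744844), and the deposited counts are summed over the whole gene, with no line for this exon. The sequence is shown because its loss defines the mutant.
Dab1 exon 3: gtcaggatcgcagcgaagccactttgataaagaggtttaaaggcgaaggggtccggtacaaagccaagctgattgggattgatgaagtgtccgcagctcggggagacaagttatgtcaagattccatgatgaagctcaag
Counts over the whole gene, as CPM (counts scaled to a common library total with TMM factors), ranged from 243 to 367 in the controls, with a median of 304, and from 347 to 465 in KO-Dab1, with a median of 407. Dab1 counts were thus not lower in KO-Dab1, and 7 of the 9 KO-Dab1 libraries lay above every control. The log2 fold change was 0.42 (SE 0.11, edgeR adjusted p = 0.0645), which did not pass the test in the main fit. It passed with DESeq2 (0.41, adjusted p = 0.00773) and in 1 of the 15 edgeR fits that each left out 1 library, the one without control replicate 2 (0.48, adjusted p = 0.0312).

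Between KO-Dab1 and control cells, astrocyte, oligodendrocyte lineage, cell cycle and matrix genes were among the genes that fell. A few genes of adhesion and axon guidance were among those that rose, while adhesion genes as a list went both ways. Of 12673 genes tested, 81 were differentially expressed genes (DEGs, adjusted p under 0.05 and absolute log2 fold change above 0.35), 26 upregulated and 55 downregulated. These are 0.639%, 0.205% and 0.434% of the genes tested. The median absolute log2 fold change of the DEGs was 0.83, and 19 exceeded 1. The groups did not overlap in CPM for 24 of the 81 DEGs, 14 upregulated and 10 downregulated, while 0.371% of all tested genes had groups that did not overlap. At an unadjusted p under 0.05, 899 genes (7.09%) were higher and 1086 genes (8.57%) were lower in KO-Dab1.

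**Figure D1:**
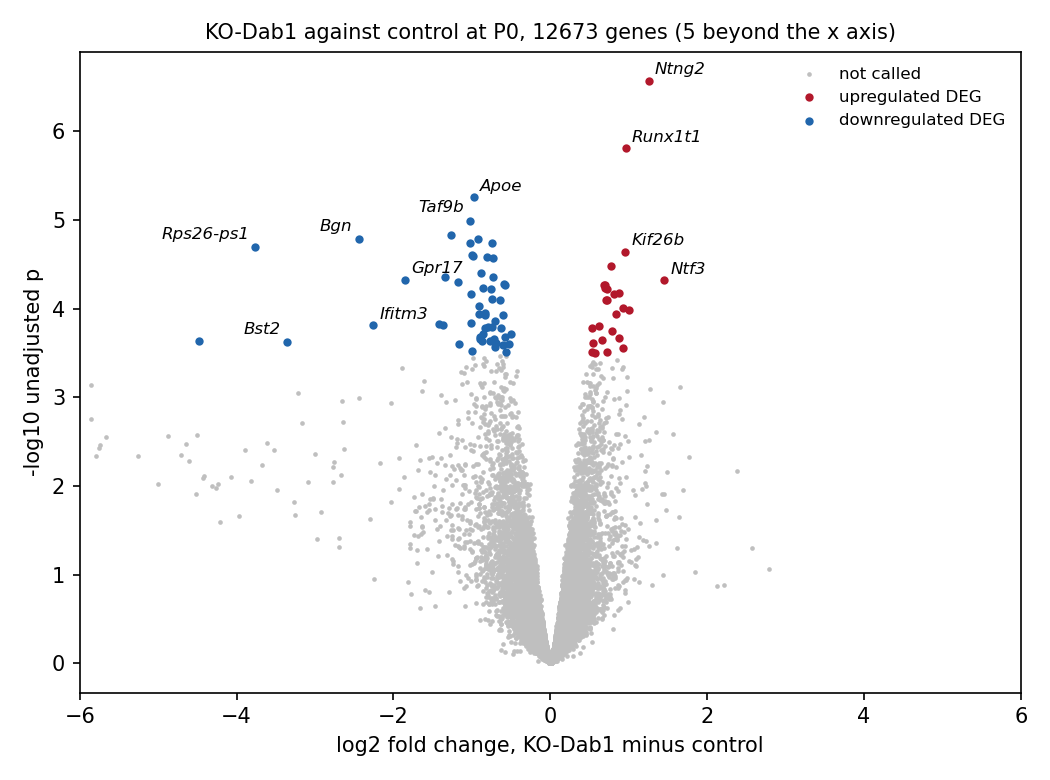
Log2 fold change (x axis, KO-Dab1 minus control) against the −log10 of the unadjusted p (y axis) for the 12673 genes tested in 6 control and 9 KO-Dab1 libraries, with 26 upregulated DEGs in red and 55 downregulated DEGs in blue. Ntng2 and Runx1t1 lie highest, and the named genes beyond −2 are Rps26-ps1, Bst2, Bgn and Ifitm3.

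The number of DEGs depended on single libraries. Without control replicate 7 it was 2, without control replicate 3 it was 7, and without KO-Dab1 replicate 8 it was 13. It was 30 without control replicate 6, and 44, 47, 37, 37 and 34 without KO-Dab1 replicates 1, 3, 6, 7 and 9. It rose to 243 without control replicate 2 and to 130 without KO-Dab1 replicate 2. Leaving out control replicates 1 and 7 together with KO-Dab1 replicate 2, an alternative added once the data had been seen, gave 5 DEGs. DESeq2 called 429 genes with the same thresholds, and edgeR with a covariate for the share of reads that fell outside genes called 30, 22 of them among the 81. Only Ntng2 and Runx1t1 were DEGs in all 15 fits that each left out 1 library, and they too were not called in every alternative: Ntng2 missed in the libraries with Xist alone (adjusted p = 0.0621), and Runx1t1 without control replicates 1 and 7 (0.0651) and in the 12 libraries of shared replicate numbers without a block (0.0798); for the other DEGs the number of such fits is given with their values.

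Among the ligands and receptors of the pathway, no gene other than Apoe was a DEG in the main fit; DESeq2 also called Vldlr. Of 57 members of the Reelin signaling list tested, 0 were upregulated and 1 was downregulated (3 and 1 with DESeq2); the median log2 fold change was 0.06, against 0.02 over all tested genes. Reln, the ligand, ranged from 1.60 to 31.4 CPM in the controls, with a median of 4.91, and from 4.91 to 25.5 in KO-Dab1, with a median of 9.56. The groups overlapped throughout, with control replicates 5 and 7 far above the other controls, and the log2 fold change was 0.14 (SE 0.64, adjusted p = 0.945). Its size and sign depended on single libraries, with 0.64 without control replicate 5 and −0.09 without control replicate 6.

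Both receptors had positive fold changes that did not pass the test in the main fit. Vldlr ranged from 38.2 to 57.3 CPM in the controls, with a median of 45.1, and from 53.6 to 86.2 in KO-Dab1, with a median of 61.1 (log2 fold change 0.48, SE 0.14, adjusted p = 0.0955), and it passed with DESeq2 (0.47, adjusted p = 0.0357). Lrp8 ranged from 117 to 205 CPM, with a median of 135, and from 132 to 201, with a median of 170 (0.24, SE 0.13, adjusted p = 0.383). Without control replicate 5, the library at 205 CPM, the log2 fold change of Lrp8 was 0.37 (edgeR adjusted p = 0.123). The kinase gene Fyn ranged from 192 to 324 CPM in the controls and from 183 to 413 in KO-Dab1, with medians of 288 and 282 (0.10, SE 0.16, adjusted p = 0.816). For Vldlr, 7 KO-Dab1 libraries lay above every control; for Lrp8 none did. Downstream of the receptors, 0 of 19 adaptors and kinases, 0 of 19 effectors and 0 of 4 turnover genes were DEGs, with median log2 fold changes of 0.06, −0.06 and −0.05.

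Apoe, the lipid carrier that astrocytes make and a ligand of the same receptor family, fell. It ranged from 1998 to 5001 CPM in the controls, with a median of 3030, and from 1202 to 2296 in KO-Dab1, with a median of 1573. Control replicate 7 was highest, and 7 of the 9 KO-Dab1 libraries lay below every control. The log2 fold change was −0.97 (SE 0.16, edgeR adjusted p = 0.0228), and Apoe was a DEG in 14 of the 15 fits without 1 library, with an adjusted p of 0.0547 without control replicate 7. It was not called with control replicates 1 and 7 and KO-Dab1 replicate 2 left out (−0.74, adjusted p = 0.113), nor with those 2 controls alone left out (0.131), all 16 libraries (0.291), the 12 libraries of shared replicate numbers without a block (0.0798) or the libraries with Xist alone (0.0669).

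The strongest change by p was the rise of Ntng2, which encodes netrin-G2, a membrane-anchored axon guidance protein that binds the synaptic organizer NGL-2. Ntng2 ranged from 19.9 to 39.9 CPM in the controls, with a median of 28.3, and from 41.0 to 88.5 in KO-Dab1, with a median of 70.3. Every KO-Dab1 library lay above every control, although the lowest KO-Dab1 library, the shallow replicate 5, lay only just above the highest control. The log2 fold change was 1.25 (SE 0.17, adjusted p = 0.00342).

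Runx1t1, a transcriptional corepressor, ranged from 46.4 to 92.0 CPM in the controls, with a median of 70.3, and from 105 to 156 in KO-Dab1, with a median of 133 (log2 fold change 0.96, SE 0.15, adjusted p = 0.00978). The groups did not overlap. Ntf3, the neurotrophin that signals through TrkC, ranged from 3.29 to 10.9 CPM and from 11.8 to 34.0, with medians of 7.17 and 20.0 (1.45, SE 0.29, adjusted p = 0.0257, a DEG in 12 of 15 fits). Its level was low, and again no KO-Dab1 library reached down to the controls.

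Genes of cell adhesion and axon guidance were among the upregulated DEGs. Of 62 axon guidance genes tested, 2 were upregulated and 0 downregulated, and of 118 adhesion genes 3 and 0; the median log2 fold changes were 0.18 and 0.04. Over the 30 alternative settings the adhesion median ran from −0.08 to 0.06, and the axon guidance median from 0.13 to 0.21. At an unadjusted p under 0.05 both lists went both ways, with 12 guidance genes higher and 7 lower, and 21 adhesion genes higher and 16 lower. By class, the median was 0.11 for 33 cadherins and protocadherins (4 higher, 0 lower at that threshold), 0.01 for 39 immunoglobulin superfamily genes (9 and 6), 0.13 for 36 claudins and others (8 and 5) and −0.54 for 10 integrins (0 and 5, with 0 DEGs). Epha5, an Eph receptor, ranged from 73.8 to 103 CPM in the controls and from 107 to 201 in KO-Dab1, with medians of 94.6 and 153 (0.68, SE 0.14, adjusted p = 0.0257, 12 of 15 fits). Cntn2, the axonal adhesion molecule TAG-1, ranged from 170 to 355 CPM and from 335 to 677, with medians of 277 and 538 (0.88, SE 0.18, adjusted p = 0.0266, 11 of 15 fits). The groups of Epha5 did not overlap; for Cntn2, KO-Dab1 replicates 4 and 5 lay within the range of the controls. The teneurin gene Tenm2 had medians of 45.9 and 78.4 CPM (0.72, adjusted p = 0.0257, 12 of 15 fits) and Flrt3, which encodes a ligand of UNC5 receptors and latrophilins, 40.1 and 72.9 CPM (0.72, adjusted p = 0.0487, 3 of 15 fits).

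**Figure D2:**
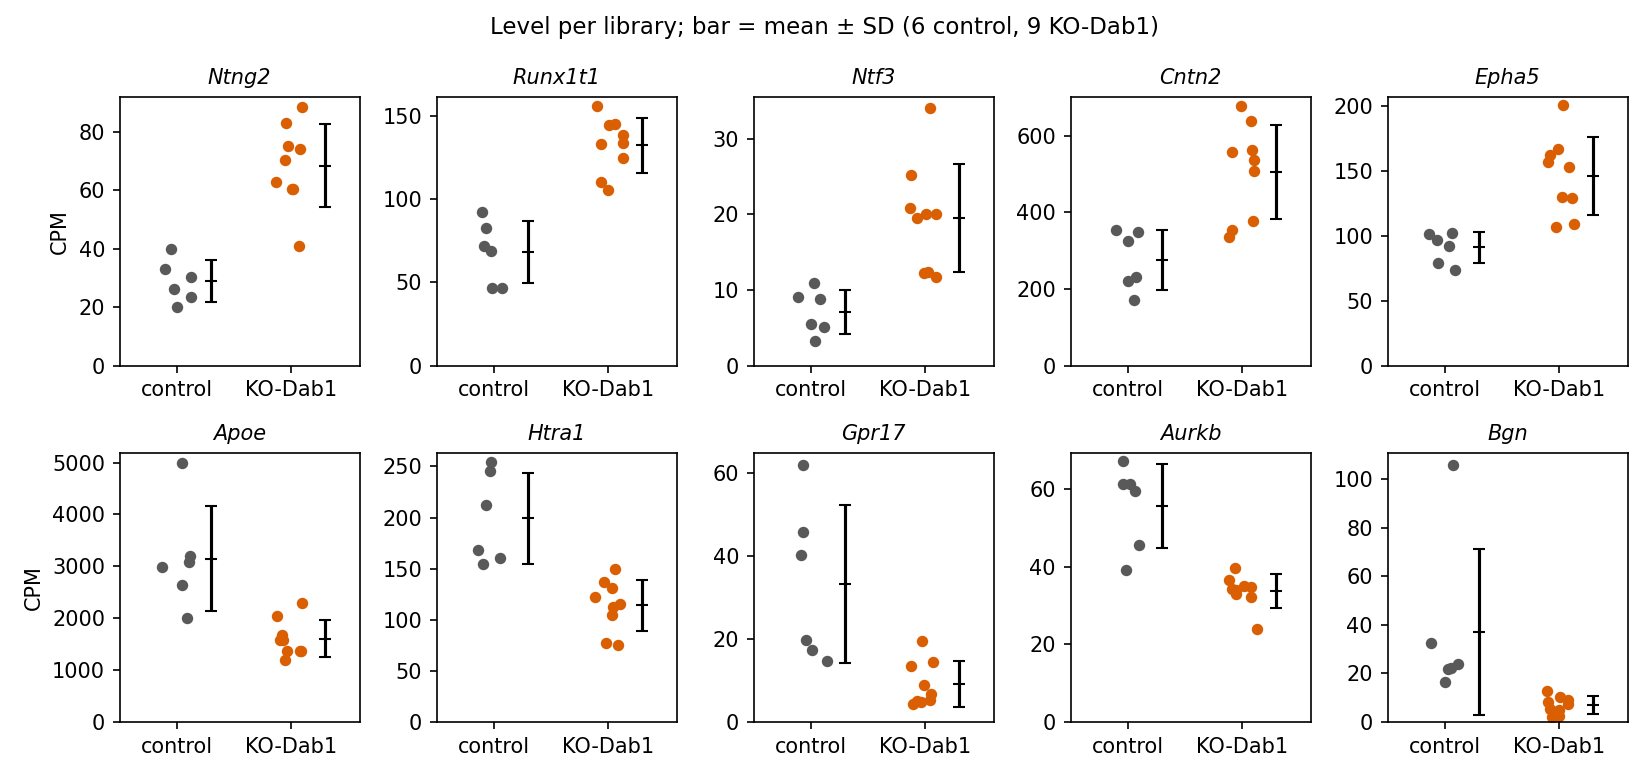
Level in CPM (y axis, from 0) of 5 upregulated and 5 downregulated DEGs in each of 6 control (grey) and 9 KO-Dab1 (orange) libraries, with the mean ± SD beside the points. The groups do not overlap for Ntng2, Runx1t1, Ntf3, Epha5, Htra1 and Bgn.

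Ank3, Kif26b and Socs2 were also upregulated. Ank3, which encodes ankyrin-G of the axon initial segment, had medians of 85.5 CPM in the controls and 134 in KO-Dab1 (0.69, SE 0.14, adjusted p = 0.0257, 12 of 15 fits). Kif26b, a kinesin family gene, had medians of 56.2 and 93.9 CPM (0.95, SE 0.18, adjusted p = 0.0228, 13 of 15 fits). Socs2, a suppressor of cytokine signaling, had medians of 32.1 and 57.9 CPM (0.77, SE 0.15, adjusted p = 0.0257, 11 of 15 fits). The groups did not overlap for Kif26b and Socs2, and for Ank3 8 of the 9 KO-Dab1 libraries lay above every control.

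Tmem108, Igsf3 and Elmod1 completed the 12 upregulated DEGs with the smallest adjusted p, with log2 fold changes of 0.70, 0.71 and 0.82 and adjusted p of 0.0257, 0.0274 and 0.0266. They were DEGs in 11, 10 and 9 of the 15 fits. Catsper2, at 5.82 to 8.62 CPM in the controls and 10.3 to 18.1 in KO-Dab1, was among the 5 largest rises without overlap (0.93, adjusted p = 0.0463, 3 of 15 fits). Erc2, a protein of the presynaptic active zone, was the only DEG among 46 synaptic vesicle genes (0.53, adjusted p = 0.0487, 3 of 15 fits).

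Several lists of neuronal genes had positive medians with few or no DEGs. The median log2 fold change was 0.31 for 64 voltage-gated channel genes (0 DEGs), 0.30 for the synaptic vesicle genes, 0.20 for 48 genes of neuronal migration and the cytoskeleton (0 DEGs) and 0.18 for 48 genes of glutamate receptors and the postsynapse (0 DEGs). At an unadjusted p under 0.05, 16 of the 64 channel genes were higher and 2 lower, and 17 of the 48 migration genes were higher and 2 lower. Over the 30 alternative settings, which share most libraries, these medians stayed positive. The lowest were 0.14 for the synaptic vesicle list and 0.07 for the list of glutamate receptors and the postsynapse. For 18 genes of GABA and glycine receptors the median was −0.03, with Gabrg1, a receptor subunit, downregulated (medians 19.3 and 7.05 CPM, −1.37, SE 0.30, adjusted p = 0.0379, 7 of 15 fits).

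Markers of projection neurons of the layers were not called in the main fit; DESeq2 called 2 upper-layer genes and 1 gene of layers 5 and 6, all upregulated. Of 21 upper-layer genes tested, 0 were DEGs, 18 had a positive fold change and the median was 0.30; of 23 genes of layers 5 and 6, 0 were DEGs and the median was 0.15. The summed level of the upper-layer list ranged from 2348 to 3866 CPM in the controls, with a median of 3215, and from 3508 to 4662 in KO-Dab1, with a median of 4149. The layer 5 and 6 list had medians of 1430 and 1882 CPM. Both lists overlapped between the groups. With control replicates 1 and 7 and KO-Dab1 replicate 2 left out, their median log2 fold changes were 0.15 and 0.09. The most abundant genes, Mef2c and Nfia, had log2 fold changes of 0.52 (adjusted p = 0.184) and 0.33 (adjusted p = 0.579). The lists of subplate neurons (11 tested, median −0.17, most abundant gene Nr4a2), Cajal-Retzius cells (4 tested, 0.10, Calb2) and intermediate progenitors (13 tested, 0.06, Hes6) held 0 DEGs. The Cajal-Retzius median was −0.02 without control replicate 1 and 0.39 without control replicate 7.

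Astrocyte markers were lower, 3 of them past the test. Of 17 tested, 0 were upregulated and 3 downregulated, 17 had a negative fold change, 12 were lower at an unadjusted p under 0.05, and the median log2 fold change was −0.58. Aldh1l1, a folate enzyme and astrocyte marker, had medians of 301 and 208 CPM (−0.58, SE 0.13, adjusted p = 0.0433, 6 of 15 fits). For Aldh1l1, 7 KO-Dab1 libraries lay below every control. In these bulk libraries, fewer cells of a type and less RNA per cell cannot be told apart.

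Summed over the list, astrocyte genes ranged from 4837 to 10478 CPM in the controls, with a median of 6883, and from 3249 to 5605 in KO-Dab1, with a median of 4132. Control replicate 7 was highest, and control replicate 5 lay within the range of KO-Dab1. Apoe was the most abundant gene of the list, and much of the summed fall was its own. The mean of Apoe was 3151 CPM in the controls and 1607 in KO-Dab1, against list means of 7047 and 4274. Agt and Gjb6 were at 0 in 7 and 3 libraries. Without control replicate 7 the median log2 fold change of the list was −0.38, and it was −0.44 without control replicates 1 and 7 and KO-Dab1 replicate 2. Slc15a2, a peptide transporter of astrocytes, also fell, with medians of 100.4 and 67.4 CPM (−0.74, adjusted p = 0.0228, 13 of 15 fits).

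Radial glia markers held 0 DEGs, and 5 downregulated with DESeq2; of 25 tested, 24 had a negative fold change, 12 were lower at an unadjusted p under 0.05, and the median was −0.34. Their summed level had medians of 15776 and 12526 CPM, and the groups overlapped. The most abundant gene, Fabp7, had a log2 fold change of −0.25 (adjusted p = 0.541). Among 25 Notch signaling genes, 0 were DEGs and the median was −0.30.

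Of 39 cell cycle genes tested, 3 were downregulated DEGs, 37 had a negative fold change, 18 were lower at an unadjusted p under 0.05, and the median was −0.38. Aurkb, the kinase of the chromosomal passenger complex, ranged from 39.2 to 67.2 CPM in the controls and from 23.8 to 39.7 in KO-Dab1, with medians of 60.4 and 34.3 (−0.73, SE 0.14, adjusted p = 0.0257, 12 of 15 fits). Tpx2, a spindle assembly factor, had medians of 51.7 and 29.8 CPM (−0.75, SE 0.16, adjusted p = 0.0274, 9 of 15 fits) and Top2a, the topoisomerase of dividing cells, 89.8 and 51.5 CPM (−0.64, SE 0.13, adjusted p = 0.0274, 8 of 15 fits). The groups did not overlap for Tpx2; for the other 2 genes 8 of 9 KO-Dab1 libraries lay below every control.

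Of 10 oligodendrocyte lineage genes tested, 3 were downregulated, 10 had a negative fold change and the median was −0.61. Gpr17, a receptor of differentiating precursors, ranged from 14.7 to 61.9 CPM in the controls and from 4.26 to 19.4 in KO-Dab1, with medians of 30.0 and 6.79 (−1.85, SE 0.36, adjusted p = 0.0257, 10 of 15 fits). Sox10, the transcription factor of the lineage, had medians of 87.0 and 41.8 CPM (−1.01, SE 0.22, adjusted p = 0.0379, 6 of 15 fits) and Pdgfra, the receptor of precursors that fibroblasts also express, 91.0 and 48.1 CPM (−0.997, SE 0.23, adjusted p = 0.0487, 4 of 15 fits). Control replicates 3, 6 and 7 were the highest for Gpr17, and all 3 genes overlapped between the groups. The summed level had medians of 1734 and 1092 CPM; Olig1, the most abundant gene, had a log2 fold change of −0.64 (adjusted p = 0.0712, called by DESeq2 with 0.0142) and Opalin, a marker of myelinating cells, was at 0 in every library.

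**Figure D3:**
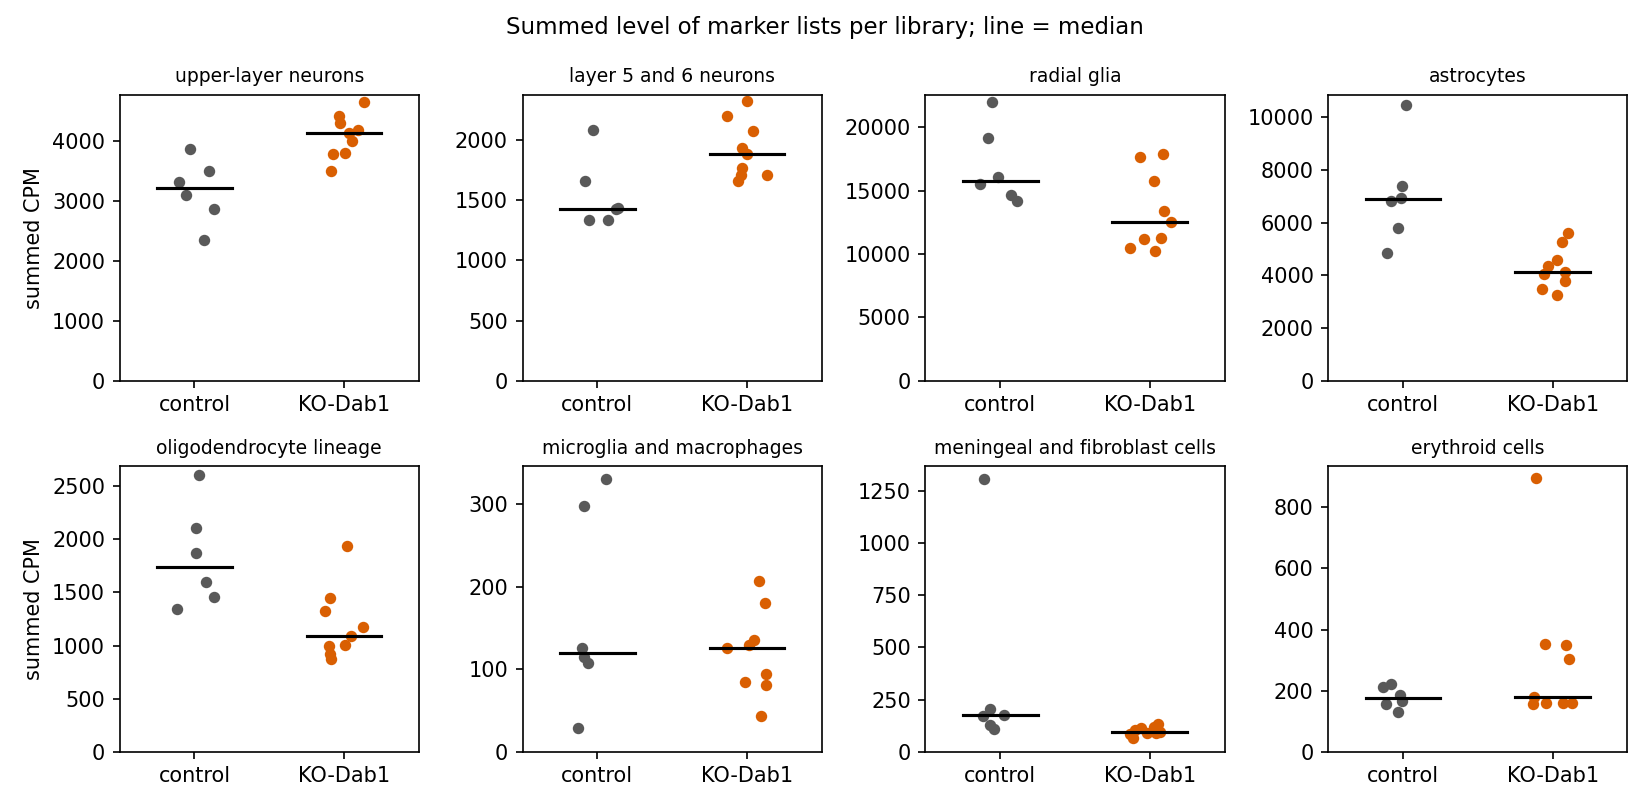
Summed CPM (y axis, from 0) of 8 marker lists in each of 6 control (grey) and 9 KO-Dab1 (orange) libraries, with the median as a line. The astrocyte medians are 6883 and 4132 CPM, and control replicate 1 stands alone in the meningeal list at 1306 CPM.

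Of 124 extracellular matrix (ECM) genes tested, 0 were upregulated and 2 downregulated, 94 had a negative fold change, 38 were lower and 3 higher at an unadjusted p under 0.05, and the median was −0.37. By class, the median was −0.59 for 24 collagens, −0.48 for 28 glycoproteins, −0.35 for 24 proteoglycans, −0.21 for 35 proteases and inhibitors and −0.17 for 13 laminins and other basement membrane genes.

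Bgn, the proteoglycan biglycan, ranged from 16.3 to 106 CPM in the controls, with a median of 22.9, and from 2.10 to 12.9 in KO-Dab1, with a median of 7.52 (−2.44, SE 0.43, adjusted p = 0.0228, 14 of 15 fits). Matn4, a matrilin, ranged from 20.8 to 87.0 CPM and from 18.0 to 31.9, with medians of 51.9 and 22.7 (−1.27, SE 0.23, adjusted p = 0.0228, 13 of 15 fits). Bgn did not overlap between the groups, and control replicate 1 was highest; Matn4 overlapped. Htra1, a secreted serine protease, had medians of 191 and 116 CPM without overlap (−0.81, SE 0.15, adjusted p = 0.0228, 12 of 15 fits).

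Markers of meningeal cells were high in 1 control. Their summed level was 1306 CPM in control replicate 1, between 109 and 208 CPM in the other controls and between 66.5 and 134 CPM in KO-Dab1. Pdgfra was the most abundant gene, Col3a1 was at 0 in 7 of the 15 libraries and Foxd1 in 13. Of the 10 genes tested, all negative and with Pdgfra the only DEG, 4 had enough counts for the test without control replicate 1, and 2 of these were negative. Without that library the median of the matrix list was −0.21, and Bgn had a log2 fold change of −1.77 (edgeR adjusted p = 0.0208). Without control replicate 7 alone Bgn was not called (−2.48, adjusted p = 0.0851). With control replicates 1 and 7 and KO-Dab1 replicate 2 left out, the median of the matrix list was −0.14 and Bgn was not called (−1.58, adjusted p = 0.127).

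Genes of interferon response and antigen presentation had 3 downregulated DEGs of 14 tested and a median of −0.78. Over the 30 alternative settings this median ran from −1.16 to −0.40. Ifitm3 ranged from 19.6 to 113 CPM in the controls and from 1.47 to 19.6 in KO-Dab1, with medians of 23.2 and 8.98 (−2.26, SE 0.47, adjusted p = 0.0379, 8 of 15 fits). B2m had medians of 45.7 and 20.2 CPM (−1.17, SE 0.27, adjusted p = 0.0433, 4 of 15 fits) and Bst2 3.61 and 0.940 CPM (−3.35, SE 0.76, adjusted p = 0.0433, 2 of the 13 fits that tested it). Control replicates 1 and 2 were the highest for Ifitm3 and Bst2, and the other controls lay just above the highest KO-Dab1 library for Ifitm3.

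Several marker lists of cells outside the Emx1 lineage were low or uneven, but interneuron genes were counted in every library. Microglia and macrophage genes summed to between 28.9 and 331 CPM in the controls and between 43.2 and 206 in KO-Dab1; 13 of 13 tested genes were negative, and 0 were DEGs. The median of these genes was −0.57, but −0.13 without control replicate 1 and 0.43 without control replicates 1 and 7 and KO-Dab1 replicate 2, where 2 of 10 tested were negative. Endothelial genes (6 tested, 0 DEGs) had summed medians of 706 and 651 CPM, mostly from the widely expressed Bsg, with Ly6a at 0 in every library and Tie1 at 0 in 13. Mural cell genes (8 tested, 0 DEGs) had medians of 212 and 186 CPM, with Myl9 the most abundant and Abcc9 at 0 in 13 libraries. Interneuron genes (16 tested, 0 DEGs, median −0.52) had medians of 874 and 698 CPM, with Dlx2 the most abundant and Nkx2-1 at 0 in 11 libraries. Their summed level ranged from 464 to 1033 CPM in the controls and from 381 to 965 in KO-Dab1. Of the 16 genes, 13 were negative, and 6 were lower and 0 higher at an unadjusted p under 0.05. The median of this list lay between −0.65 and −0.41 in all 30 alternative settings. Erythroid genes (6 tested, 0 DEGs) had positive fold changes throughout, with a median of 2.35 that was positive in all 30 alternative settings. Their summed medians were 175 and 179 CPM, and KO-Dab1 replicates 1, 2, 4 and 6, at 305, 353, 350 and 895 CPM, lay above every control, with Bpgm the most abundant and Hba-x at 0 in every library. Choroid plexus genes (3 tested, 0 DEGs) had medians of 68.4 and 24.5 CPM, with Ttr the most abundant and Kl at 0 in 13 libraries. Their part in the results was not tested.

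Growth factor genes had 1 DEG in each direction among 47 tested, with a median of −0.12; at an unadjusted p under 0.05, 12 were lower and 1 higher. Beside Ntf3, Bmp7 fell, from a control median of 38.2 CPM to 19.3 (−1.42, SE 0.30, adjusted p = 0.0379, 4 of 15 fits), with control replicate 1 at 153. Without that library Bmp7 was not called (−0.86, adjusted p = 0.0571), nor with control replicate 7 and KO-Dab1 replicate 2 also left out (−0.65, adjusted p = 0.272). Nsdhl was the only DEG of 22 sterol synthesis genes (−0.60, SE 0.13, adjusted p = 0.0336, 7 of 15 fits), of which 21 had a negative fold change (median −0.28). Wnt signaling genes (39 tested, 0 DEGs) had a median of 0.03. Immediate early genes (29 tested, 0 DEGs) had a median of −0.31, and of −0.19 without control replicate 7, the library in which their summed level was 7938 CPM against a control median of 5072.

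Among housekeeping lists, all 7 tested protein-coding genes of the mitochondrial genome were positive, with 0 DEGs. Their median of 0.23 stayed between 0.16 and 0.31 in all 30 alternative settings. The median was 0.09 for 84 cytosolic ribosomal protein genes (66 positive, 1 DEG, downregulated), −0.05 for 22 glycolysis genes (0 DEGs), and close to 0 for 76 nuclear genes of oxidative phosphorylation (1 downregulated) and for 24 heat shock and unfolded protein genes (0 DEGs). Rps18 and the pseudogene Rps26-ps1 share near-identical copies elsewhere in the genome, so their counts are uncertain. Rps26-ps1 was at 12.0 to 15.9 CPM in control replicates 5, 6 and 7, and at 1.06 CPM or less in the other controls and in KO-Dab1 (−3.76, SE 0.70, adjusted p = 0.0228, 13 of the 13 fits that tested it). Without control replicate 5 or 7 it had too few counts for the test. Rps18 had medians of 60.4 and 20.9 CPM (−1.34, SE 0.27, adjusted p = 0.0257, 12 of 15 fits).

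**Figure D4:**
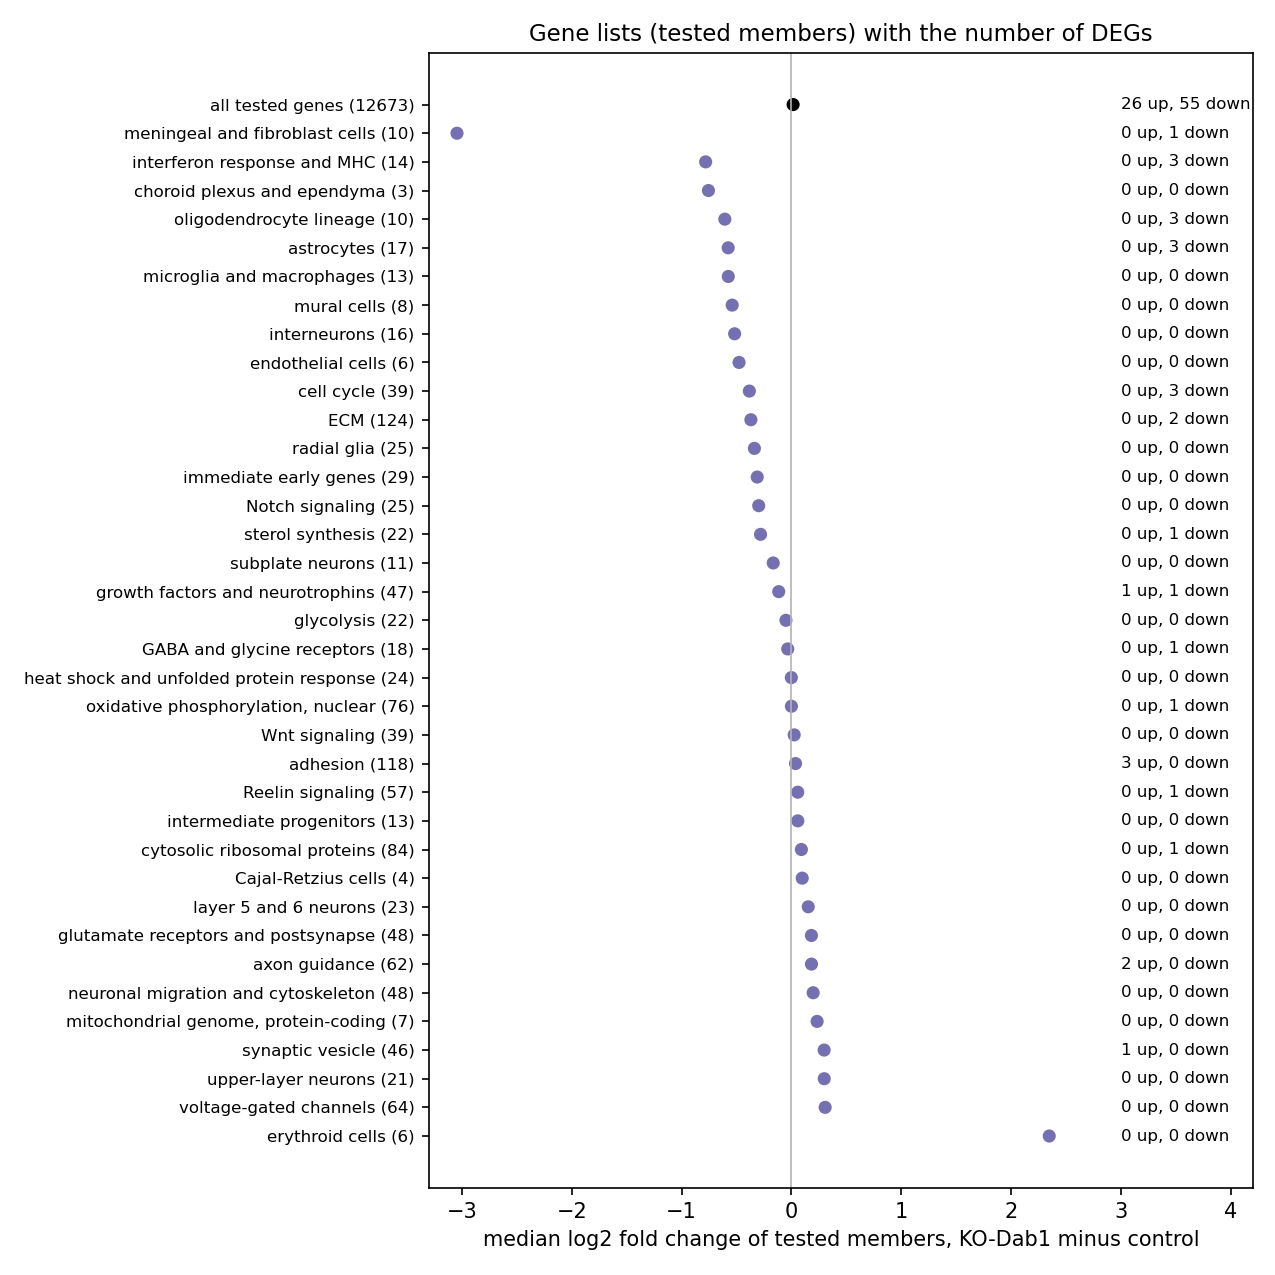
Median log2 fold change (x axis, KO-Dab1 minus control) of the tested members of each gene list, with their number in brackets and the DEGs in each direction at the right. All tested genes (black) have a median of 0.02; the astrocyte list lies at −0.58 and the voltage-gated channels at 0.31. The position of the meningeal list rests on control replicate 1.

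The position of the DEGs was examined around the mutated gene. Of 79 tested genes within 10 Mb of Dab1 on chromosome 4, 0 were upregulated and 2 downregulated. Over all tested genes the shares were 0.205% upregulated and 0.434% downregulated. Raver2 (chr4:101068983-101152370, plus strand), 2467 kb away, had medians of 30.4 and 17.7 CPM (−0.87, SE 0.20, adjusted p = 0.0433, 5 of 15 fits). Cdkn2c (chr4:109660876-109667189, minus strand), a cyclin-dependent kinase inhibitor 4916 kb away, had medians of 35.2 and 18.6 CPM (−0.91, SE 0.19, adjusted p = 0.0314, 8 of 15 fits). For both, 8 of 9 KO-Dab1 libraries lay below every control.

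3 downregulated DEGs lay near each other on chromosome X. Magt1, a subunit of the oligosaccharyltransferase complex (chrX:105968084-106011906, minus strand), lay 3.79 kb from Cox7b, a subunit of cytochrome oxidase (chrX:106015700-106022450, plus strand). Taf9b, a TFIID subunit gene (chrX:106206883-106221158, minus strand), lay 184 kb further, with 2 tested genes that were not DEGs between it and Cox7b. Magt1 had medians of 90.4 and 49.8 CPM (−0.99, SE 0.19, adjusted p = 0.0228, 12 of 15 fits), Cox7b 507 and 293 CPM (−0.75, SE 0.15, adjusted p = 0.0257, 10 of 15 fits) and Taf9b 23.7 and 10.7 CPM (−1.02, SE 0.18, adjusted p = 0.0228, 13 of 15 fits). Only Taf9b had groups that did not overlap. Car8, a carbonic anhydrase-related protein, and Tcn2, a vitamin B12 carrier, were also among the 12 downregulated DEGs with the smallest adjusted p, with medians of 65.2 and 30.9 CPM for Car8 and of 39.7 and 20.1 CPM for Tcn2 (adjusted p = 0.0228 for both, 13 and 12 of 15 fits).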

How the data were processed

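Gene counts deposited by the authors were used as given. Per the labels and the study's methods, reads were aligned to GRCm38 (mm10) with STAR, keeping uniquely aligned reads, and counted per gene. Of these counts, those made without regard to strand were used here. The submitters' processing notes also name R 3.6.1 and bedtools. Gene names came from GENCODE vM21, with 53274 of 53379 identifiers matched without their version. The lines for reads not assigned to a gene were kept out of library sizes and tests; reads outside genes made up 9.73 to 15.1% of reads in the 15 libraries used. Control replicate 4, with 4.82% uniquely aligned reads and 101309 gene counts, was left out.

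Genes with a mean count above 20 were tested with edgeR 4.0.16 (robust quasi-likelihood F test, TMM) in R 4.3.3, with Benjamini-Hochberg adjustment; DESeq2 1.42.0 was an alternative. The standard error is the log2 fold change over the root of F. The procedure was tested on simulated counts. At a simulated log2 fold change of 1, 39 of 50 changed genes were called, and at 2 and 3 all 50 were. The simulated libraries held none that stood apart, so the result does not bear on how the calls depend on single libraries. CPM used the TMM-scaled totals of the tested genes. Library pairs of 1 group differed beyond counting noise, so none was counted as a copy. 1 sample was 1 cortex. Precision depends on depth, which was lowest in KO-Dab1 replicate 5.

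Genes were named by a rule: Dab1; DEGs of the Reelin list with Reln, Vldlr, Lrp8 and Fyn; in each direction the 12 DEGs of lowest adjusted p; up to 4 DEGs per list and direction; the 5 DEGs per direction with the largest fold change and no overlap of the groups; the most abundant gene of each cell type list; and DEGs within 10 Mb of Dab1. Genes without an official name were counted only, unless among the first 3 by adjusted p or near Dab1. Some genes picked by the rule are not reported here. Members and lists were chosen with earlier results of these data known.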

Additional observations from a re-analysis of the deposited data

Results flagged for a closer look

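Single libraries lay far from the others of their group for 20 of the 166 groups of values examined (named genes, marker lists and library measures); chance alone picks about 1 in 20 groups. Among the controls, replicate 1 was high for Bgn (106 CPM), Bmp7 (153 CPM) and the summed meningeal list (1306 CPM). Control replicate 7 was high for Slc15a2 (168 CPM) and Gabrg1 (46.2 CPM). Control replicate 5 was high for Lrp8 (205 CPM) and low for Cox7b (293 CPM).

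Among the KO-Dab1 libraries, replicate 2 was high for Kif26b (189 CPM), Bst2 (2.53 CPM), Bsg (1073 CPM), the summed endothelial list (1162 CPM) and the mitochondrial share (4.30%). Replicate 1 was high for Top2a (78.9 CPM), Ttr (166 CPM) and the summed choroid plexus list (196 CPM). Replicate 5, the shallowest, was high for Cdkn2c (35.1 CPM) and Raver2 (30.3 CPM). Replicate 6 was high for Nr4a2 (62.3 CPM) and the summed erythroid list (895 CPM), and replicate 7 was low for Aurkb (23.8 CPM).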

How the results depend on the processing

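The calls and their number did not hold across the alternatives. The 42 named DEGs kept the sign of their fold change wherever they were tested, but they were chosen for passing the test and the fits share most libraries, so this says little of their stability. Against 81 DEGs (26 up, 55 down), DESeq2 called 429 (194 up, 235 down), no mean-count minimum gave 134 (106 down), all 16 libraries gave 38 (15 up, 23 down), and a covariate for the share of reads that fell outside genes gave 30 (8 up, 22 down). RLE, upper-quartile, a mean count above 10, sex as a covariate and no fold change minimum gave between 80 and 99. Leaving out 1 library gave from 2 to 243 DEGs, from 2 to 113 up and from 0 to 130 down; 1359 genes were under an unadjusted p of 0.05 where edgeR called 0 down. The cause was not tested.

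Replicate numbers were shared by 6 pairs of libraries, with nothing to show that they mark a litter or day. The correlation of deviations within pairs ran from −0.0503 to 0.155, and only replicate 1 correlated best with its own number. The replicate block gave 52 DEGs (28 up, 24 down), 21 of them among the 81; the same 12 libraries without the block gave 2 (2 up, 0 down; 1843 genes at an unadjusted p under 0.05). This last fit and the next 3 were chosen after seeing the data. Leaving out control replicates 1 and 7 and KO-Dab1 replicate 2 gave 5 DEGs (2 up, 3 down), leaving out the 2 controls alone 3 (1 up, 2 down), and the libraries with Xist alone 3 (1 up, 2 down). The mitochondrial class was not run as a covariate because every library fell in 1 class. No library measure passed its adjusted threshold with any library left out or with all 16. The medians of the astrocyte, oligodendrocyte lineage, radial glia, cell cycle and ECM lists were negative in all 30 settings, CPM on all gene reads included. The settings share most libraries, and the setting without a fold change minimum repeats the main fit. A list median that keeps its sign over them, here or above, therefore says little of its stability.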

Other observations

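Genes of this paragraph were chosen after their values were seen. Neurod6, a transcription factor of projection neurons, ranged from 243 to 599 CPM in the controls and from 607 to 828 in KO-Dab1, without overlap (log2 fold change 0.66, edgeR adjusted p = 0.0433, a DEG in 3 of the 15 fits without 1 library). Arpp21 and Celf3, RNA-binding proteins of neurons, rose with log2 fold changes of 0.73 (adjusted p = 0.0274, 8 of 15 fits) and 0.54 (adjusted p = 0.0379, 7 of 15 fits), and their groups did not overlap. Sox6 and Prom1, genes of progenitors, fell by 0.50 (adjusted p = 0.0417, 6 of 15 fits) and 0.62 (adjusted p = 0.0379, 5 of 15 fits) on the log2 scale, also without overlap. S100a1 and S100a16, 22.9 kb apart on chromosome 3 with 1 tested gene between them that was not a DEG, fell by 1.01 (adjusted p = 0.0266, 10 of 15 fits) and 0.79 (adjusted p = 0.0379, 6 of 15 fits). BC002163, a processed pseudogene whose counts are uncertain, had the largest absolute log2 fold change of the DEGs, −4.48 (adjusted p = 0.0433, 4 of the 13 fits that tested it), with 23.05 CPM in the highest control and a control median of 0.437 CPM.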
